A study of Mus musculus with 72 samples.

Results

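Fap, Pdgfrb, Cspg4 and Acta2 are 4 genes commonly used to mark fibroblasts and pericytes, and they are described here in tumours of mice given bintrafusp alfa, radiation or both. They were chosen by symbol, as 4 of the 1224 genes that the study's amplicon panels read, and all 4 had enough counts to be tested. Expression was measured in 36 female BALB/c mice, 6 to 12 weeks old, each with 1 tumour of 4T1, a mammary tumour line derived from this strain. The cells were injected into the thigh muscle on day -6, treatment was given on day 0 and the tumours were taken on day 6. There were 4 groups of 9 mice. The BA+RT group had bintrafusp alfa (BA) and radiation (RT). The BA group had 492 µg of BA. The RT group had radiation and the isotype antibody, and the control group had 400 µg of the isotype antibody. BA, labelled M7824, joins an antibody against PD-L1 to a TGF-β receptor ectodomain that traps TGF-β. No source used here states the dose of radiation. The labels call the tumours orthotopic, although the design text places them in muscle. No label names a cage, donor or extraction batch.

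Tumour stroma holds fibroblasts and mural cells, the pericytes and smooth muscle cells that wrap vessels. Fap encodes fibroblast activation protein, a surface serine protease of activated fibroblasts. Pdgfrb encodes the PDGF receptor β, which fibroblasts and pericytes carry and through which PDGF-BB from endothelial cells recruits pericytes to new vessels. Cspg4 encodes the proteoglycan NG2, a pericyte surface marker that some tumour cells can also carry. Acta2 encodes α-smooth muscle actin, the contractile actin of smooth muscle, of many pericytes and of myofibroblasts, which are fibroblasts activated by TGF-β. TGF-β signals through Smad proteins, which bind the short DNA element CAGAC.

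Each gene was read by 1 short amplicon, so its count reports 1 place in the transcript. Positions are on mouse GRCm38; the position columns of the deposited table are headed GRCh38, but 1277 of the 1278 amplicons lay inside the named mouse gene of GENCODE M21. The Fap amplicon (ENSMUSG00000000392) spans chr2:62501184-62501278 on the minus strand, in exon 26 of 26, and ends with the stop codon. The Cspg4 amplicon (ENSMUSG00000032911) spans chr9:56888385-56888484 on the plus strand, in coding exon 3 of 10. The Acta2 amplicon (ENSMUSG00000035783) spans chr19:34241483-34241577 on the minus strand, in exon 9 of 9, and lies wholly in the 3′ UTR. The Fap and Cspg4 amplicons are shown, 5′ to 3′ on the transcript strand, because they are the coding stretches that stand for these genes in every value below. The capitals mark the Fap stop codon.
Fap amplicon: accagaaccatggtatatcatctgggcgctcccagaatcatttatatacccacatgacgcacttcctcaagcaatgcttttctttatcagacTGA
Cspg4 amplicon: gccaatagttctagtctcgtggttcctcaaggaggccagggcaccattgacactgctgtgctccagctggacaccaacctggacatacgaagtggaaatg
No run of 30 bases of any of the 4 amplicons occurred in a GENCODE M21 transcript of another gene. Acta2 is one of a family of closely similar actins, and its amplicon shared no such run with them.

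Promoter entries were available for 2 members, Cspg4 and Acta2. Cspg4 was the member with the largest difference between groups, so its promoter alone is shown. The sequence is the RefSeq window of GRCm38.p6 at chr9:56864854-56865032, plus strand, the 179 bases upstream of the first annotated Cspg4 exon. Capitals mark CAGAC, searched on both strands, so that GTCTG is the same element on the minus strand.
Cspg4 promoter: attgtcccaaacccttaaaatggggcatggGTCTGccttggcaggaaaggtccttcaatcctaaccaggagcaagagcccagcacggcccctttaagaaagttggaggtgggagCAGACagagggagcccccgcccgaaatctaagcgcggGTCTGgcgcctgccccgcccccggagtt
The window held 3 copies of the element. Of 32851 promoter windows of the same length, 33.1% held at least 1 copy and 1.12% held at least 3. A match is a description of the letters and was not tested for binding. The copies in the Acta2 promoter were not counted on their own, so the promoters of the 2 members were not compared. Cspg4 was picked for its change, so a link between the element and the BA difference was not tested.

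The 36 tumour RNAs were read on 2 panels, giving 72 libraries of 959532 to 2616197 counts on panel 1 and 314621 to 841046 on panel 2. Fap, Pdgfrb and Cspg4 were on panel 1 and Acta2 was on panel 2. Libraries of the irradiated groups were deeper, with panel 1 medians of 1898032 counts in BA+RT, 1362126 in BA, 1902836 in RT and 1567411 in control. The lowest raw counts of a member in any library were 200 for Fap, 406 for Pdgfrb, 41 for Cspg4 and 67 for Acta2. Levels are given as CPM, the library's counts scaled to a common total with TMM factors. They are compared between groups within a gene and not between genes, because amplicons differ in yield. Replicates are separate mice. In whole tumours, fewer cells of a type and less RNA per cell cannot be told apart.

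All 4 genes were lower in BA tumours and in BA+RT tumours than in control tumours, whereas RT tumours differed from control in Fap and Pdgfrb. With BA alone, 4 of 4 members were called lower, against 14.5% of the 1038 tested genes (edgeR quasi-likelihood F test, Benjamini-Hochberg adjusted p below 0.05). Their median log2 fold change was -0.97, against 0.00 for all tested genes. With BA+RT, 4 of 4 were again called lower, with a median of -0.93, against 24.2% of all genes and a median of 0.01. With RT, 2 of 4 were called lower, against 21.1% of all genes. Both treatments and their combination were compared with the same control mice, so these 3 comparisons share their reference values. Between the treated groups, 2 of 4 members were lower in BA+RT than in RT (7.13% of all genes) and 3 of 4 were lower in BA than in RT (28.2%). Between BA+RT and BA, 1 member was lower and 1 higher, where 53.5% of all genes were called in either direction. The interaction test asks whether the BA difference was the same with and without radiation. It called 0 of 4 members, against 8.29% of all genes, and 2 of 4 had an unadjusted p below 0.05.

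**Figure D1:**
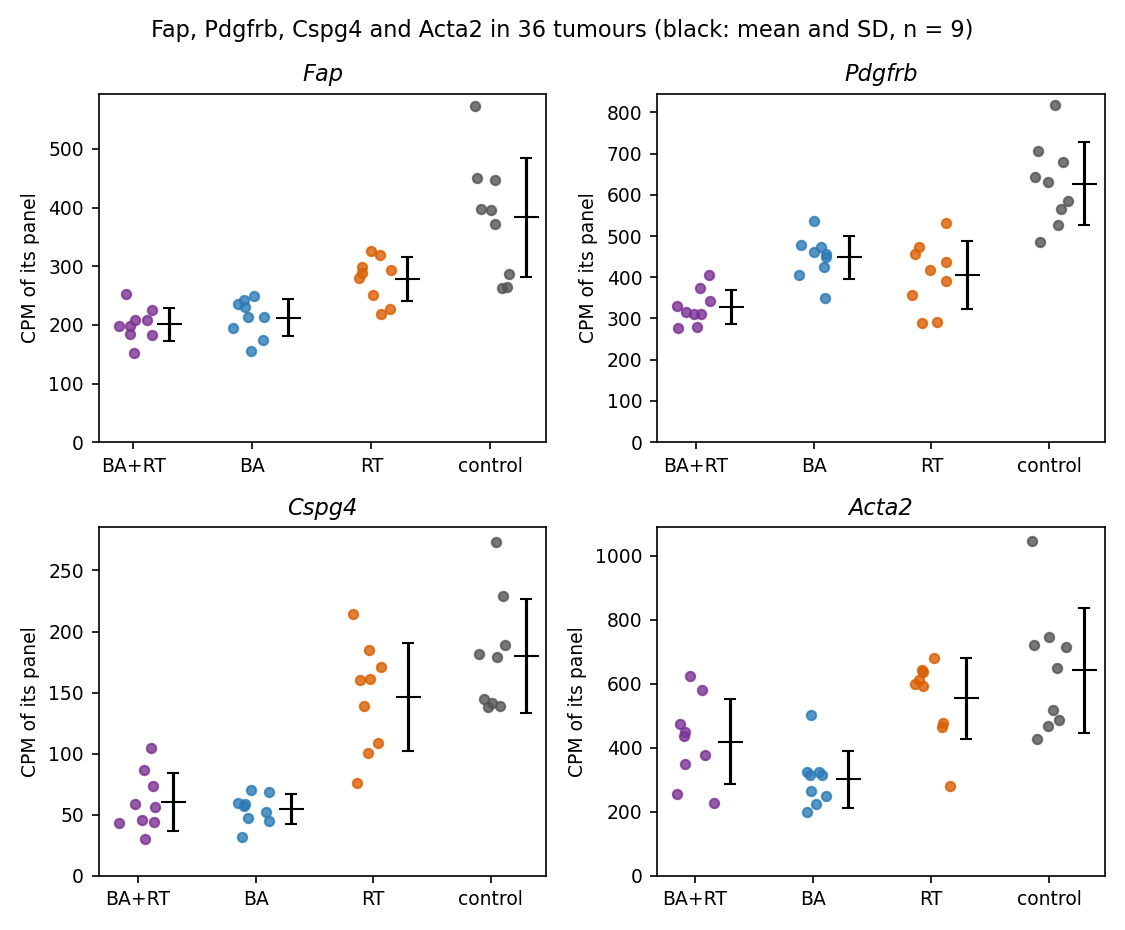
CPM of Fap, Pdgfrb, Cspg4 and Acta2 in each of 36 tumours, by group from BA+RT to control; each point is 1 mouse, and the black line and bar give the mean and SD (n = 9). The BA+RT and BA points of Fap and Cspg4 lie below every control point, while the RT points of Cspg4 and Acta2 overlap the control points.

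Fap, the protease of activated fibroblasts, was lowest in the groups that had BA. In BA+RT tumours Fap ran from 152 to 252 CPM with a median of 198. In BA tumours it ran from 156 to 249 CPM with a median of 214. RT tumours held 219 to 326 CPM with a median of 288, and control tumours 263 to 573 CPM with a median of 396. The highest BA+RT and BA tumours were both below the lowest control tumour, while 3 of 9 RT tumours were. Means were 201 ± 28.1 in BA+RT, 212 ± 31.9 in BA, 278 ± 38.1 in RT and 383 ± 102 CPM in control (SD, n = 9 each).

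Fap was 1.81-fold lower in BA than in control tumours (log2 fold change -0.85, SE 0.12, adjusted p = 3.76e-06). It was 1.91-fold lower in BA+RT than in control tumours (log2 fold change -0.93, SE 0.12, adjusted p = 1.74e-07). The RT difference was smaller, at -0.46 (SE 0.12, adjusted p = 0.00246). That RT call was lost when libraries were scaled by the panels' reference genes (log2 fold change -0.28, adjusted p = 0.0993). Fap was lower in BA+RT than in RT (log2 fold change -0.47, SE 0.12, adjusted p = 0.0103), a call lost when libraries were thinned to equal depth (-0.36, adjusted p = 0.0720). BA tumours were also below RT tumours (log2 fold change -0.39, SE 0.12, adjusted p = 0.00742). BA+RT and BA tumours, neighbours at the low end, were not told apart (log2 fold change -0.08, SE 0.12, adjusted p = 0.609).

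Pdgfrb, the receptor shared by fibroblasts and pericytes, was lower with each treatment. Its amplicon (ENSMUSG00000024620) spans chr18:61063989-61064082 on the plus strand, in coding exon 5 of 24 of the longest coding transcript. In BA+RT tumours it ran from 277 to 405 CPM with a median of 316. In BA tumours it ran from 349 to 537 CPM with a median of 456. RT tumours held 289 to 533 CPM with a median of 417, and control tumours 487 to 819 CPM with a median of 631. All 9 BA+RT tumours were below the lowest control tumour, as were 8 of 9 BA tumours and 8 of 9 RT tumours. Means were 328 ± 41.6 in BA+RT, 448 ± 52.2 in BA, 405 ± 82.1 in RT and 627 ± 101 CPM in control (SD, n = 9 each).

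Pdgfrb was 1.91-fold lower in BA+RT than in control tumours (log2 fold change -0.94, SE 0.11, adjusted p = 7.51e-09). The RT difference from control was -0.63 (SE 0.11, adjusted p = 9.08e-06) and the BA difference was -0.48 (SE 0.11, adjusted p = 0.000665). BA and RT tumours were not told apart (log2 fold change 0.15, SE 0.11, adjusted p = 0.246). BA+RT tumours were below BA tumours (log2 fold change -0.45, SE 0.11, adjusted p = 0.000556). Between BA+RT and RT tumours the difference of -0.31 (SE 0.11, adjusted p = 0.0545) missed the threshold. It was past it in DESeq2 (-0.28, adjusted p = 0.0496), at equal depth (-0.37, adjusted p = 0.0226) and under reference gene scaling (-0.33, adjusted p = 0.0276), and in 8 of 36 fits without 1 mouse, across which it ran from -0.36 to -0.25. Those mice were BA+RT mice 43 and 45, BA mouse 16, RT mice 25, 26 and 27, and control mice 3 and 5.

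Cspg4, the NG2 proteoglycan of pericytes, was low in the groups that had BA. In BA+RT tumours it ran from 30.1 to 104 CPM with a median of 56.5. In BA tumours it ran from 32.0 to 70.1 CPM with a median of 57.0. RT tumours held 76.0 to 215 CPM with a median of 161, and control tumours 139 to 273 CPM with a median of 179. No BA+RT or BA tumour reached the lowest control tumour, and no BA tumour reached the lowest RT tumour. Means were 60.2 ± 23.8 in BA+RT, 54.4 ± 12.1 in BA, 146 ± 44.3 in RT and 180 ± 46.6 CPM in control (SD, n = 9 each).

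Cspg4 was 3.30-fold lower in BA than in control tumours (log2 fold change -1.72, SE 0.21, adjusted p = 2.91e-07), and its p ranked 3 among 1038 genes. It was 2.98-fold lower in BA+RT than in control tumours (log2 fold change -1.57, SE 0.20, adjusted p = 1.32e-07). It was also lower in BA+RT than in RT tumours (-1.28, SE 0.20, adjusted p = 4.18e-05) and in BA than in RT tumours (-1.42, SE 0.21, adjusted p = 5.87e-07). RT and control tumours were not told apart (-0.30, SE 0.20, adjusted p = 0.239), nor were BA+RT and BA tumours (0.15, SE 0.21, adjusted p = 0.562).

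Acta2, the smooth muscle actin of myofibroblasts and mural cells, was lowest with BA alone and spread widely in every group. In BA+RT tumours it ran from 228 to 623 CPM with a median of 436. In BA tumours it ran from 197 to 500 CPM with a median of 315. RT tumours held 281 to 678 CPM with a median of 600 CPM, and control tumours 428 to 1047 CPM with a median of 647. The BA and control ranges met only through BA mouse 12, the highest of its group, and 8 of 9 BA tumours were below every control tumour. Means were 419 ± 133 in BA+RT, 301 ± 88.2 in BA, 554 ± 125 in RT and 641 ± 194 CPM in control (SD, n = 9 each).

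Acta2 was 2.12-fold lower in BA than in control tumours (log2 fold change -1.08, SE 0.19, adjusted p = 7.01e-05). It was 1.52-fold lower in BA+RT than in control tumours (-0.61, SE 0.19, adjusted p = 0.00723) and lower in BA than in RT tumours (-0.88, SE 0.19, adjusted p = 0.000235). RT and control tumours were not told apart (-0.21, SE 0.18, adjusted p = 0.394), nor were BA+RT and RT tumours (-0.40, SE 0.18, adjusted p = 0.173). Acta2 was the member called higher in BA+RT than in BA tumours (0.48, SE 0.19, adjusted p = 0.0367). That call did not hold in the exact permutation test (0.45, adjusted p = 0.0802), in limma on the deposited values (0.21, adjusted p = 0.0652) or in 8 of 36 fits without 1 mouse. Those mice were BA+RT mice 41, 43, 44 and 45 and BA mice 13, 14, 16 and 17.

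**Figure D2:**
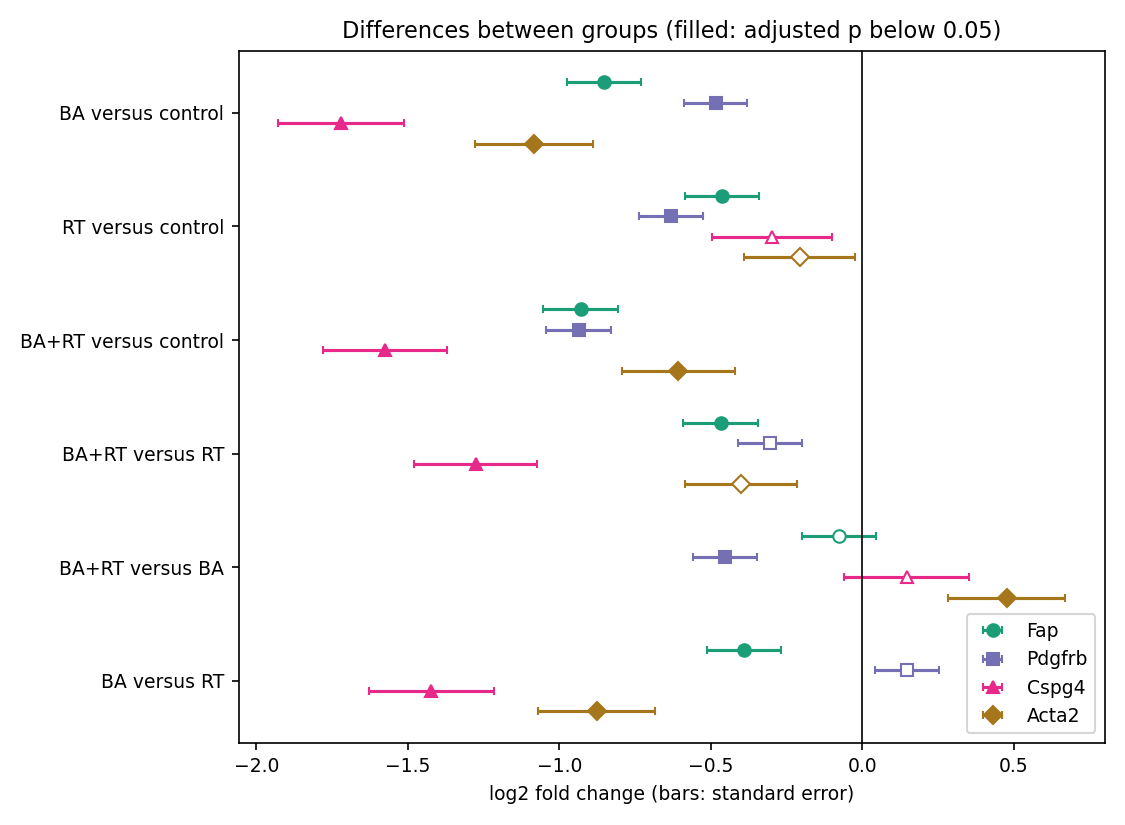
Log2 fold changes of the 4 genes in the 6 pairwise comparisons, with the first-named group on top of the ratio; bars give the standard error, and filled marks passed an adjusted p of 0.05. Cspg4 stands farthest from 0 in the 4 comparisons of a group with BA against a group without it, and Pdgfrb is the gene lowered in BA+RT against BA.

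Ranges of the groups were apart for Fap and Cspg4 in BA against control, where 1.73% of all tested genes had every BA tumour below every control tumour. In BA+RT against control they were apart for Fap, Pdgfrb and Cspg4, where the share of all genes was 3.56%. In BA against RT they were apart for Cspg4, with a share of 9.73%. Acta2 was the member whose ranges overlapped in every comparison.

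None of the 4 interaction terms was called. The term is the BA difference with radiation minus the BA difference without it. It was 0.38 for Fap (SE 0.17, adjusted p = 0.170), 0.18 for Pdgfrb (SE 0.15, adjusted p = 0.487), 0.45 for Cspg4 (SE 0.29, adjusted p = 0.361) and 0.68 for Acta2 (SE 0.27, adjusted p = 0.112). All 4 estimates were above 0, so the BA difference was numerically smaller with radiation. Without control mouse 8, RT mouse 24 and BA+RT mouse 40, which stood apart in an earlier analysis of these data, the Acta2 term was 0.86 and was called (adjusted p = 0.0284). Control mouse 8 had the lowest Acta2 of its group and RT mouse 24 the highest of its group. Without the mouse of highest skeletal muscle sum in each group, the term was 0.45 (adjusted p = 0.292). In the 36 fits without 1 mouse it ran from 0.56 to 0.80 and was never called (lowest adjusted p = 0.0565).

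The 3 panel 1 genes were also compared as ratios of their counts within a library, which do not depend on scaling between libraries. The differences were tested by exact permutation over mice, two-sided, with adjustment over 18 tests. A ratio of amplicon counts is not a ratio of molecules, so it is read between groups alone. The Cspg4 to Pdgfrb ratio ran from 0.0963 to 0.279 in BA+RT tumours, from 0.0917 to 0.170 in BA, from 0.263 to 0.424 in RT and from 0.220 to 0.407 in control tumours. No BA tumour reached the lowest control or RT ratio, so Cspg4 was lowered by more than Pdgfrb with BA. The log2 difference was -1.23 in BA against control (adjusted p = 0.000185) and -0.70 in BA+RT against control (adjusted p = 0.00212). With RT the ratio was higher than in control by 0.32 on the log2 scale (adjusted p = 0.0197), Pdgfrb being the gene of the pair that was called lower with RT. BA+RT differed by -1.02 from RT (adjusted p = 0.000296) and by 0.53 from BA (adjusted p = 0.0197), and BA differed by -1.55 from RT (adjusted p = 0.000185).

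The Cspg4 to Fap ratio was lower in the groups with BA, although 3 of 9 BA+RT tumours lay within the control range. It differed by -0.89 in BA against control (adjusted p = 0.000185), by -0.73 in BA+RT against control (adjusted p = 0.00620) and by -0.84 in BA+RT against RT (adjusted p = 0.00699). BA was also below RT, by -0.99 (adjusted p = 0.000185). RT against control (0.10, adjusted p = 0.610) and BA+RT against BA (0.16, adjusted p = 0.562) did not pass. The Fap to Pdgfrb ratio moved less. It was lower in BA than in RT (-0.56, adjusted p = 0.00197) and higher in BA+RT than in BA (0.38, adjusted p = 0.0121). Against control it was lower with BA (-0.34, adjusted p = 0.0270), a call lost without BA mouse 10 (adjusted p = 0.0537), BA mouse 11 (0.0526), control mouse 1 (0.0519) or control mouse 6 (0.0533). RT against control, BA+RT against control and BA+RT against RT did not pass for this ratio (adjusted p = 0.209, 0.817 and 0.245).

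**Figure D3:**
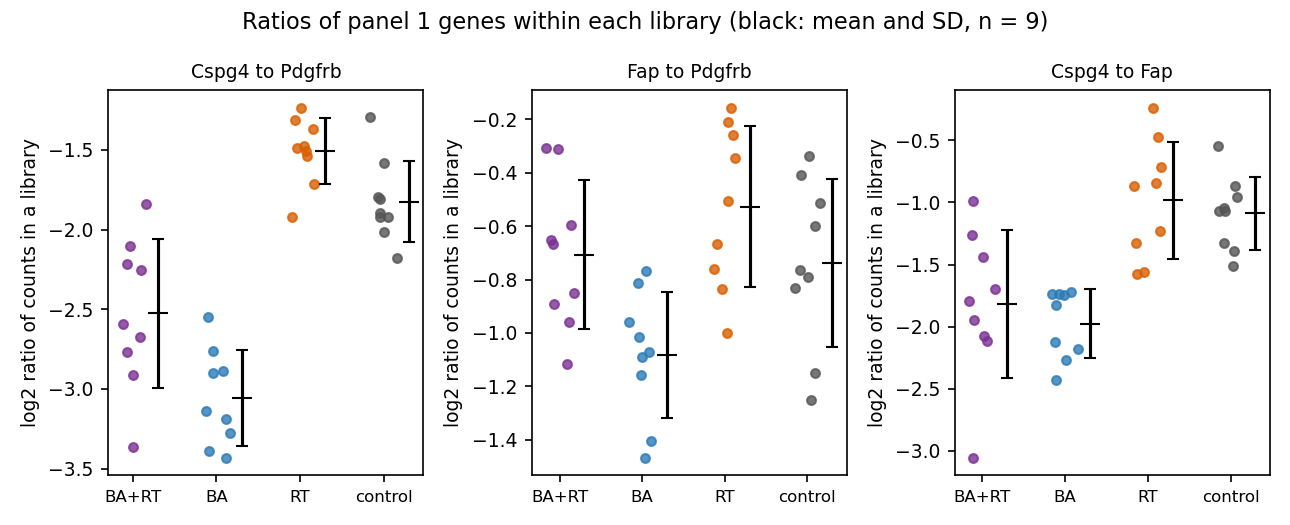
Log2 ratios of counts of 2 genes of the same library, by group from BA+RT to control; points are mice, and the black line and bar give the mean and SD (n = 9). The Cspg4 to Pdgfrb ratio of the 9 BA tumours lies below all RT and control tumours.

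With group means removed, tumours high in 1 of these genes tended to be high in another, though not for every pair in every group. Correlations were taken over 36 mice on log2 CPM with the group means removed, with permutation tests of 100000 shuffles within groups, adjusted over 6 pairs. Pdgfrb and Cspg4, both carried by pericytes, went together most closely (Pearson r = 0.71, Spearman rho = 0.70, adjusted p = 6e-05 for each, permutation test). Without the 2 mice farthest from the median Pdgfrb, r was 0.65. Within groups r was 0.63 in BA+RT, 0.51 in BA, 0.96 in RT and 0.68 in control tumours. Cspg4 and Acta2 were read in different libraries of the same RNA and had r = 0.63 and rho = 0.65 (permutation test, adjusted p = 0.00036 and 0.00024). Within groups their r was 0.65 in BA+RT, 0.18 in BA, 0.91 in RT and 0.69 in control tumours, and it was 0.66 without the 2 farthest mice.

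In the RT group 3 mice were low in 3 of the genes together. RT mice 25, 26 and 27 had the lowest Pdgfrb, Cspg4 and Acta2 of their group, and mouse 25 was the lowest of all 9 for each. Their panel 1 libraries, with 2241753, 2200590 and 2616197 counts, were the 3 deepest of the 36. Their panel 2 libraries, in which Acta2 was read, held 718087, 621847 and 775133 counts and were not the deepest. The RT median on that panel was 626610 and the highest total of any group 841046. The part of depth in these low values was not tested. Without these 3 mice, a setting chosen after seeing the data, r over the other 33 mice was 0.60 for Pdgfrb and Cspg4 (permutation test, adjusted p = 0.00246) and 0.53 for Cspg4 and Acta2 (adjusted p = 0.0188). Pdgfrb and Acta2 had r = 0.46 and rho = 0.45 over all mice (permutation test, adjusted p = 0.0121 and 0.0162), and r = 0.36 without the 2 farthest. Without the 3 RT mice this relation no longer passed (r = 0.29, adjusted p = 0.126), and r in control tumours alone was 0.00. Fap went least closely with the others. Its r was 0.35 with Pdgfrb, 0.35 with Cspg4 and 0.39 with Acta2 (permutation test, adjusted p = 0.0454, 0.0359 and 0.0312), while its rho of 0.22, 0.31 and 0.32 did not pass (adjusted p = 0.217, 0.0853 and 0.0853). Without the 2 farthest mice the Fap r values were 0.24, 0.25 and 0.35, and without the 3 RT mice none of the 3 passed (lowest adjusted p = 0.0944). Within BA+RT tumours alone, Fap had r = -0.05 with Pdgfrb, -0.02 with Cspg4 and 0.69 with Acta2.

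**Figure D4:**
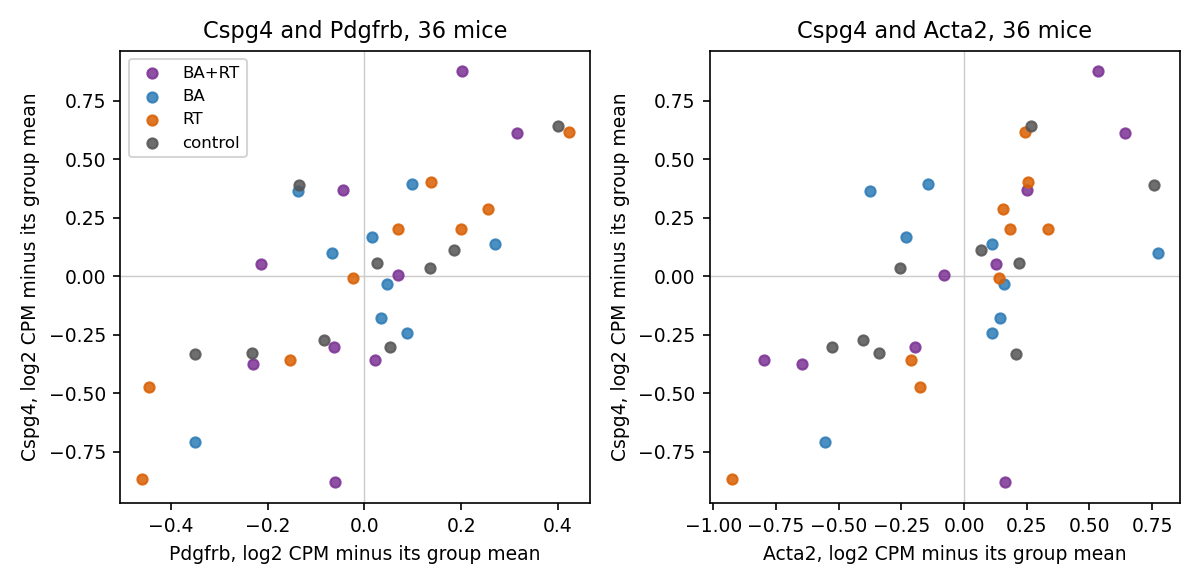
Deviation of Cspg4 from its group mean against that of Pdgfrb (left) and of Acta2 (right), in log2 CPM, for 36 mice coloured by group. Points run from lower left to upper right in both panels (r = 0.71 and 0.63), with an RT mouse at the lower left of each.

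The genes whose deviations were most like those of each member were found among all tested genes, by Pearson r over 36 mice with group means removed. For Pdgfrb these were Cd248 (r = 0.87), which encodes endosialin, a surface protein of pericytes and stromal fibroblasts, Nfatc4 (0.73) and Cspg4. For Cspg4 they were Mrc2 (0.73), a collagen-binding endocytic receptor, Pdgfrb and Cd248 (0.70). For Acta2 they included the TGF-β target Ctgf (0.82) and the ligand gene Tgfb2 (0.78), both read in the panel 2 libraries with Acta2. For Fap they were Itm2a (0.75), Col8a2 (0.73), a short-chain collagen, and Cd200 (0.67). With group means kept, Cd200 led for Fap (0.84) and for Cspg4 (0.89), Prdm1 for Pdgfrb (0.86) and Tgfb2 for Acta2 (0.89). Next came Hey1 (0.84) and Rab38 (0.82) for Fap, Vash1 (0.84) and Cd93 (0.84) for Pdgfrb, Mmp9 (0.88) and Ncald (0.85) for Cspg4, and Edn1 (0.88) and Bcat1 (0.87) for Acta2. These are likenesses over mice that share libraries, chosen as the highest of all genes, and carry no test.

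Other stromal genes on the panels followed the 4 members in part. The lists were chosen with earlier results of these data known, and the cells that expressed the listed genes were not identified. Of 7 tested genes on a list of myofibroblast TGF-β targets, 6 were lower and 0 higher in BA than in control tumours. Over all genes, 14.5% were called lower and 12.5% higher. The median log2 fold change of the 7 was -0.54, against 0.00 for all genes. Timp1, an inhibitor of metalloproteinases, was lower by -0.92 on the log2 scale (adjusted p = 1.16e-05), the vasoconstrictor endothelin gene Edn1 by -0.86 (adjusted p = 4.64e-05) and Timp3 by -0.79 (adjusted p = 0.00445). In RT against control, where 20.5% of all genes were called higher, 3 of the 7 were higher, Timp1 by 0.60 (adjusted p = 0.00101), Timp3 by 0.50 (adjusted p = 0.0447) and Ctgf by 0.40 (adjusted p = 0.0144), and 1 was lower, Itgav (-0.18, adjusted p = 0.0148). Under reference gene scaling the RT split was 4 higher and 0 lower. None of the 4 members was called higher with RT. In BA+RT against control 0 of the 7 were higher and 2 were lower, Edn1 (-0.53, adjusted p = 0.00304) and Itgav (-0.14, adjusted p = 0.0494). Under reference gene scaling 1 of the 7 was lower with BA+RT.

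Of 10 other fibroblast and matrix genes, 4 were lower with BA and 1 was higher (14.5% and 12.5% of all genes), with a median of -0.40. The lower genes included the chemokine Cxcl12 (-1.17, adjusted p = 0.0243), Cd248 (-0.90, adjusted p = 3.58e-05) and the type I collagen chain Col1a2 (-0.79, adjusted p = 0.000122), and the gene that was higher was fibronectin, Fn1 (0.29, adjusted p = 0.0409). With RT 1 of the 10 was called, the matricellular gene Thbs2 (0.31, adjusted p = 0.0420), which was higher. With BA+RT 3 of the 10 were lower and 0 higher, near the 24.2% of all genes called lower, and 2 were lower under RLE, total-count or reference gene scaling. Cd248 averaged 87.2 ± 17.8 CPM in BA+RT, 67.1 ± 10.1 in BA, 141 ± 35.3 in RT and 125 ± 29.0 in control tumours (SD, n = 9 each). From high to low its means ran RT, control, BA+RT, BA, and those of Cspg4 ran control, RT, BA+RT, BA. The orders differ in RT and control alone, which were not told apart for Cd248 (0.17, adjusted p = 0.384) or Cspg4 (-0.30, adjusted p = 0.239).

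Of 3 tested genes on a list of other mural and smooth muscle genes, 2 were lower with BA, against 14.5% of all genes. These were the endothelin receptors Ednra (-0.63, adjusted p = 0.00477) and Ednrb (-0.76, adjusted p = 0.0149). With RT, Ednra was lower (-0.59, adjusted p = 0.00421) and Anpep, an aminopeptidase found on pericytes and myeloid cells, was higher (0.34, adjusted p = 0.00124). Over all genes, 21.1% were called lower and 20.5% higher with RT. With BA+RT, 2 of the 3 were lower, 1 under reference gene scaling, and 0 were higher, against 24.2% lower over all genes. Of the PDGF ligands, 2 were on the panels. Pdgfb, whose product is the main ligand of PDGF receptor β, was lower with BA (-0.44, adjusted p = 0.0237) and with BA+RT (-0.45, adjusted p = 0.00997), but with RT it differed by 0.03 (adjusted p = 0.866). The BA call on Pdgfb did not hold without the 4 mice richest in skeletal muscle transcripts. Pdgfa was higher with RT (0.29, adjusted p = 0.0288).

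Among 6 TGF-β ligands and receptors, Tgfb2 was lower with BA (-1.15, adjusted p = 4.16e-06). The receptor genes Tgfbr1 (0.20, adjusted p = 0.0225) and Tgfbr2 (0.18, adjusted p = 0.0141) were higher, and under reference gene scaling neither was called. With RT, Eng (0.27, adjusted p = 0.00685) and Tgfbr2 (0.19, adjusted p = 0.00430) were higher. With BA+RT, 1 of the 6 was higher and 2 were lower (1 under reference gene scaling), against 23.4% higher and 24.2% lower over all genes.

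**Figure D5:**
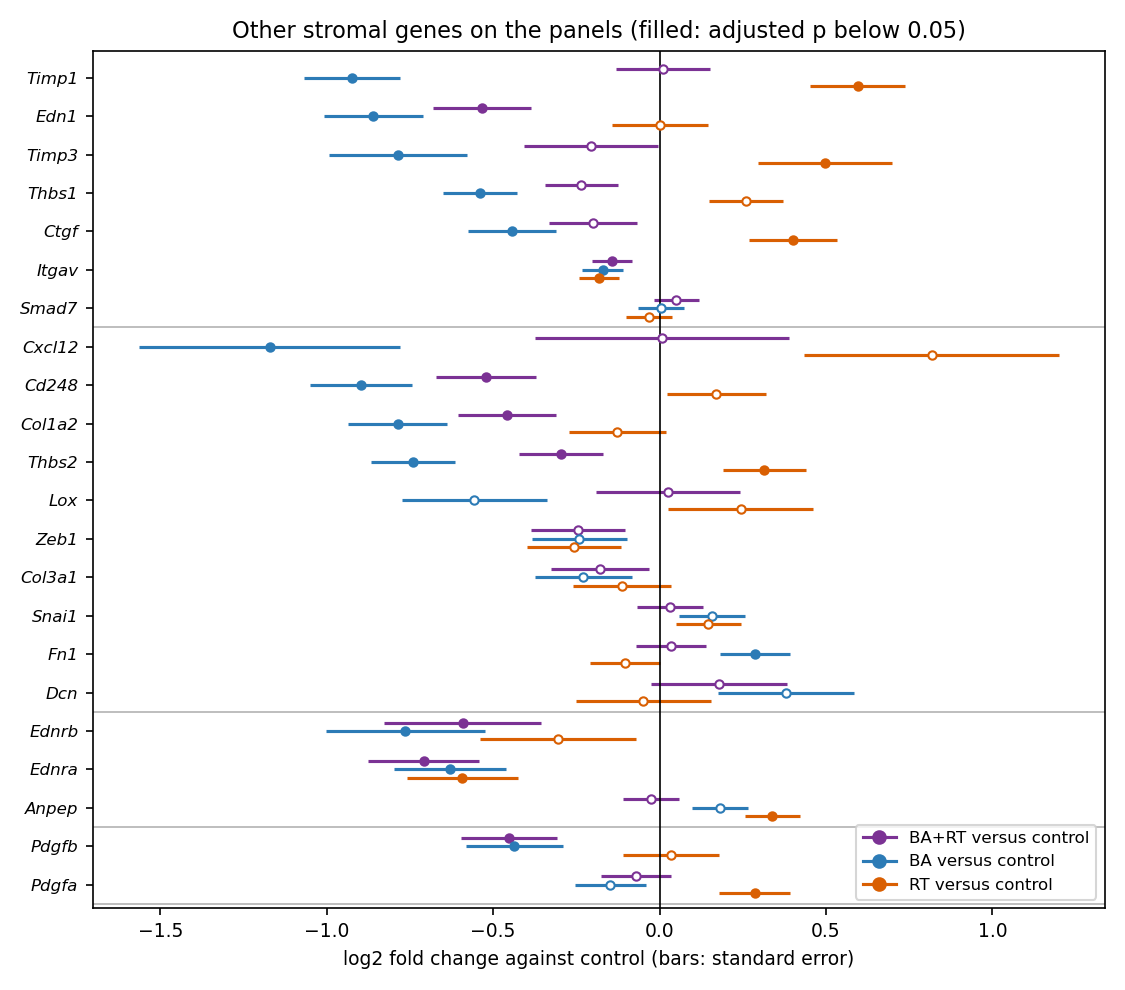
Log2 fold changes against control of the other stromal genes on the panels, for BA+RT, BA and RT tumours; lines divide, from the top, myofibroblast TGF-β targets, fibroblast and matrix genes, mural genes and PDGF ligands, bars give the standard error, and filled marks passed an adjusted p of 0.05. BA marks lie left of 0 for 6 of the 7 TGF-β targets, and RT marks of Timp1, Timp3 and Ctgf lie right of it.

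Markers of other cell types moved with the groups too, and their part in the results on the 4 genes was not tested. The summed level of 4 endothelial markers had medians of 528 CPM in BA+RT (400 to 917), 706 in BA (501 to 792), 730 in RT (555 to 773) and 878 in control tumours (695 to 1098). The 4 genes did not move together. Cd34 (-0.41, adjusted p = 0.00974) and Kdr (-0.39, adjusted p = 0.0148) were lower with BA, and Cd34 was lower with RT (-0.50, adjusted p = 0.000967), a call lost under reference gene scaling. The endothelial selectins went the other way with BA+RT, where Sele (0.84, adjusted p = 0.0112) and Selp (0.95, adjusted p = 0.00475) were higher. In that comparison Cd34 (-0.95, adjusted p = 9.33e-08) and Kdr (-0.70, adjusted p = 1.25e-05) were lower. The sum of 4 tumour epithelial markers had medians of 8696 CPM in BA+RT (5545 to 10365), 10185 in BA (8606 to 11459), 7611 in RT (6843 to 10615) and 12353 in control (10358 to 15644). Macrophage markers, 7 in all, were at 4781 in BA+RT (4356 to 5422), 4967 in BA (4349 to 5323), 5438 in RT (4008 to 5868) and 4249 CPM in control (3857 to 4781). These sums follow their most abundant genes, and single genes went against them. With RT the epithelial genes Muc1 (2.32, adjusted p = 3.41e-10) and Msln (0.55, adjusted p = 0.00105) were higher, as they were with BA+RT (1.86, adjusted p = 2.07e-08, and 0.93, adjusted p = 7.33e-07). Of the macrophage genes, Csf1r was lower with RT (-0.55, adjusted p = 4.10e-06) and with BA+RT (-0.47, adjusted p = 3.92e-05), and Adgre1 was lower with BA (-0.43, adjusted p = 0.00919). Adgre1 was higher with RT (0.69, adjusted p = 2.34e-05) and with BA+RT (0.41, adjusted p = 0.00570). Of the 7 macrophage genes, 3 were called higher and 1 lower with BA, 5 and 1 with RT, and 3 and 1 with BA+RT. Over all genes, 12.5%, 20.5% and 23.4% were called higher and 14.5%, 21.1% and 24.2% lower.

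Leukocyte markers, 2 in all, had summed medians of 2120 CPM in BA+RT (1567 to 2463), 2553 in BA (2317 to 2804), 2358 in RT (1914 to 3092) and 1810 in control (1612 to 2203). The 8 T cell markers summed to medians of 35.5 CPM in BA+RT (26.6 to 119), 149 in BA (75.2 to 328), 21.2 in RT (11.6 to 146) and 44.8 in control (32.3 to 176). The 5 tested neutrophil markers summed to 1488 in BA+RT (1243 to 3749), 2038 in BA (1701 to 6486), 1742 in RT (1379 to 5197) and 2839 CPM in control (1834 to 4765). The leukocyte and T cell sums had their highest median with BA. The neutrophil sum had its highest median in control, but the receptor genes Fpr1 (1.14, adjusted p = 0.000607) and Fpr2 (1.08, adjusted p = 1.14e-06) were higher with BA, and with BA+RT they were higher too (0.87, adjusted p = 0.00352, and 0.44, adjusted p = 0.0109). Of the 5 tested neutrophil markers, 2 were called higher and 3 lower with BA+RT, against 23.4% and 24.2% of all genes. With RT, Fpr1 was higher (0.82, adjusted p = 0.00652). No list had all its markers at 0 in any group.

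Skeletal muscle transcripts, a measure of thigh muscle in the sample, varied widely within groups, and their medians were highest in the groups with BA. The 3 tested markers summed to 572 to 11386 CPM in BA+RT (median 2929), 458 to 5151 in BA (2621), 391 to 2753 in RT (1283) and 271 to 8063 in control tumours (490). Of the 3, 0 were called with BA or with RT. With BA+RT 1 was higher than in control, Myod1 (1.58, adjusted p = 0.0108), where 23.4% of all genes were called higher. Myod1 was also higher in BA+RT than in BA (1.32, adjusted p = 0.0294). BA+RT mouse 45 and control mouse 6, the tumours with the highest muscle sums of their groups, also had the highest Acta2 of their groups. The other groups did not share this. BA mouse 13 and RT mouse 23, highest in muscle there, had Acta2 of 224 and 592 CPM, below their group medians of 315 and 600. With the 4 mice of highest muscle sum left out, 1 a group, the BA difference from control was -0.84 for Fap, -0.49 for Pdgfrb, -1.72 for Cspg4 and -0.93 for Acta2, and all 4 were still called (highest adjusted p = 0.00113). The 4 calls of BA+RT against control also held (highest adjusted p = 0.00798). The Acta2 difference between BA+RT and BA was 0.35 without them and was not called (adjusted p = 0.126). Leaving these mice out did not even out muscle between the groups. Of the 3 muscle markers, 2 were then higher in BA than in control (median log2 fold change 1.72). In BA+RT against control 3 were then higher (median 1.73). This setting therefore cannot separate muscle content from treatment, and the part of muscle in the results was not tested.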

How the data were processed

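The authors deposited whole-number counts per amplicon, not normalized, and log2-scale rlog values, per the file headers; per the submitters' processing notes DESeq2 was used, with no version. Aligner, counter and any use of molecular barcodes: not stated by any source used here. Which panel is which is not labelled. Each column was assigned by its name to its labelled group; mouse numbers are not shared between groups, so nothing is paired. The counts were analysed per panel with edgeR 4.0.16 in R 4.3.3 (TMM, low-count filter by group, robust quasi-likelihood F test, all 4 groups in 1 fit), with Benjamini-Hochberg adjustment over 1038 genes and calls below 0.05. CPM are deposited counts scaled by library total and TMM factor; log2 CPM used a prior count of 2, and ratios added 0.5 counts. Genomic DNA control rows (10, holding 2.32e-05% of counts) were left out. Exact tests ran over 48620 arrangements. The test scripts were tested on simulated data. No 2 libraries of a group agreed within sampling noise (lowest chi-square per degree of freedom 6.32). Of the lists and of the most similar genes, 1 gene is not reported here. The 4 genes, the lists and the rules were chosen with earlier results of these data known. Besides the 4 members and the most similar genes, a rule named the called genes with the largest change in BA or RT against control. It took at most 3 genes a list and comparison, and was followed for the stromal, PDGF and TGF-β lists. For the cell type lists it was followed in part. Genes it gave whose values are not printed were Itgb2, Itgam, Msr1, Cd68, Epcam, Cd3g, Cd2 and Cd5, and Muc1 and Msln with BA. Itgav, Fn1, Sele, Selp, Csf1r and the BA+RT values of list genes, and Pdgfb with RT, were named after their values were seen. Alternatives were RLE, no scaling, reference gene factors, no filter, only 2 groups, DESeq2 1.42.0, limma 3.58.1 on the deposited log2 values, exact permutation, equal depth and left-out mice.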

Additional observations from a re-analysis of the deposited data

Results flagged for a closer look

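BA mouse 12 had an Acta2 level of 500.4 CPM, far above the other 8 BA tumours, of which the next highest was at 325 CPM. The gap was 0.579 of the group's range, above Dixon's 95% critical value for 9 samples. Of 16 groups of values examined (4 genes in 4 groups) this was the 1 that stood out, and chance alone flags about 1 in 20. Leaving out single mice, this one included, kept the Acta2 difference between BA and control called, between -1.20 and -0.98.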

How the results depend on the processing

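The calls of all 4 genes in BA against control and in BA+RT against control held under each of the 11 alternatives and in each of 36 fits without 1 mouse. Reference gene factors gave -0.28 for Fap in RT against control (no longer called), -0.33 for Pdgfrb in BA+RT against RT (now called), 0.058 for Fap in BA+RT against BA and -0.019 for Pdgfrb in BA against RT (both changed sign, uncalled). They moved the median of all genes to 0.15 in RT against control, 0.12 in BA+RT against control, 0.14 in BA+RT against BA and -0.18 in BA against RT. Higher and lower calls under them, with the reported split in brackets, were 373 and 96 (213 and 219) in RT against control, 342 and 173 (243 and 251) in BA+RT against control, 23 and 89 (38 and 74) in BA+RT against RT, 404 and 185 (281 and 274) in BA+RT against BA, 154 and 473 (265 and 293) in BA against RT, and 13 and 46 (35 and 51) for the interaction, which DESeq2 split as 58 and 53. DESeq2 gave -0.28 and equal depth -0.37 for Pdgfrb in BA+RT against RT (both called), and equal depth gave -0.36 for Fap there (not called). For Acta2 in BA+RT against BA, limma gave 0.21 and the exact test 0.45 (neither called). Without control mouse 8, RT mouse 24 and BA+RT mouse 40 the Acta2 interaction was 0.86 (called) and 135 genes, against 86, had an interaction called. Without the 4 muscle-rich mice, chosen after seeing the data, Pdgfrb in BA+RT against RT was -0.35 (called), Acta2 in BA+RT against BA 0.35 (not called) and r of Fap and Cspg4 0.32 (not passed). Without RT mice 25, 26 and 27, also chosen so, r was 0.33 for Fap and Pdgfrb, 0.33 for Fap and Cspg4, 0.37 for Fap and Acta2 and 0.29 for Pdgfrb and Acta2 (none passed). Leaving out single mice gave 0.39 to 0.58 for Acta2 in BA+RT against BA, -0.36 to -0.25 for Pdgfrb in BA+RT against RT, -0.41 to -0.29 for the Fap to Pdgfrb ratio in BA against control and -0.032 to 0.084 for it in BA+RT against control (sign changed in 4 fits, uncalled). Apart from left-out mice, where fewer samples were fitted, the cause was not tested. The alternative amplicon could not be fitted, since no member is on both panels. No paired analysis was possible because the groups share no mouse numbers. The lowest count of any member was 41, for Cspg4 in BA mouse 16, so counting error weighs most on Cspg4.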
